A study of Mus musculus with 12 samples.

Results

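Thyroids make hormone from iodide, hydrogen peroxide and the protein thyroglobulin, and the 7 genes described here serve the first 2 of these. They are Slc5a5, Slc26a4, Duox1, Duox2, Duoxa1, Duoxa2 and Iyd, chosen by gene symbol from the 55536 genes of the deposited tables for their known role; the choice was made with earlier results of these data known. All 7 are in the tables, and all 7 were among the 19661 genes with enough counts to be tested. Expression was measured by RNA sequencing of whole thyroid, with 1 library per mouse. The 5 affected mice were C57BL/6NTac (B6NTac) animals from Taconic with thyroid dysplasia, coded TCW. The 7 unaffected mice were 6 C57BL/6 animals from Charles River Labs (B6NCrl), coded CRW, and 1 knockout animal from Taconic without dysplasia, coded TCK, whose targeted gene is not given in the sources used here. No treatment is named in the labels. The dysplasia of the B6NTac colony goes with a LINE-1 element in an intron of Tg, the thyroglobulin gene. Whether an affected mouse carried it on 1 or both alleles is not given for single mice, nor are age and sex. All affected mice were of one substrain and 6 of the 7 controls of another, so that dysplasia and substrain cannot be told apart here. Mice are named by the number in their label.

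In follicular cells, the sodium/iodide symporter encoded by Slc5a5 brings iodide in from the blood, and pendrin, encoded by Slc26a4, lets anions including iodide out. The dual oxidases encoded by Duox1 and Duox2 make the hydrogen peroxide with which iodide is bound to thyroglobulin at the apical surface, and each needs its maturation factor, encoded by Duoxa1 or Duoxa2, to leave the endoplasmic reticulum. The deiodinase encoded by Iyd recovers iodide from iodotyrosines that are released when thyroglobulin is broken down. Loss of DUOX2, DUOXA2, IYD, SLC5A5 or SLC26A4 is known to cause thyroid hormone deficiency or goitre in people.

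On the GRCm38 assembly, the oxidase genes and their maturation factors lie in one cluster on chromosome 2. Duox2 (ENSMUSG00000068452, minus strand, 122279247 to 122298449) and Duoxa2 (ENSMUSG00000027225, plus strand, 122298900 to 122302885) stand head to head with 450 bp between them. Duoxa1 (ENSMUSG00000027224, minus strand, 122302191 to 122313730) and Duox1 (ENSMUSG00000033268, plus strand, 122315672 to 122347972) also stand head to head, with 1941 bp between them. Duoxa2 and Duoxa1 run tail to tail and overlap by 695 bp, of which 682 bp are exonic in both. Slc5a5 (ENSMUSG00000000792) is on the minus strand of chromosome 8, from 70882889 to 70892757. Slc26a4 (ENSMUSG00000020651) is on the minus strand of chromosome 12, from 31519827 to 31559969. Iyd (ENSMUSG00000019762) is on the plus strand of chromosome 10, from 3540240 to 3554877. The sequence just upstream of the start is printed for 5 of the genes because of 2 sets described further on. These sets include both head-to-head pairs of the cluster. They were drawn from the levels in these same mice, and appeared separate in the unaffected but not in the affected mice.
Slc26a4: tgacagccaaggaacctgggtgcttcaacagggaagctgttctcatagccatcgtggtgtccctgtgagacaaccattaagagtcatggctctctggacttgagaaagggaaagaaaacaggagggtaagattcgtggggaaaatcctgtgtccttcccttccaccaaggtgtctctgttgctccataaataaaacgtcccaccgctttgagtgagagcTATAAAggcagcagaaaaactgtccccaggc
Duox1: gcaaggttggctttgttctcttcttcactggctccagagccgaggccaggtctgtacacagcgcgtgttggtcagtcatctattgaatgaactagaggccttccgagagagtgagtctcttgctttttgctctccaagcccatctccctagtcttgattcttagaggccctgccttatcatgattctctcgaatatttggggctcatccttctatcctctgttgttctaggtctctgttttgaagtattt
Duoxa1: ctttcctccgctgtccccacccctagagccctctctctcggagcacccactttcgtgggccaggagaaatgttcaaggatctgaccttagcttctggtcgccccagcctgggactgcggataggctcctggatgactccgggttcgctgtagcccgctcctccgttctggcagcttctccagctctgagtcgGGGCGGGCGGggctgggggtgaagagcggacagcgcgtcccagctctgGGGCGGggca
Duoxa2: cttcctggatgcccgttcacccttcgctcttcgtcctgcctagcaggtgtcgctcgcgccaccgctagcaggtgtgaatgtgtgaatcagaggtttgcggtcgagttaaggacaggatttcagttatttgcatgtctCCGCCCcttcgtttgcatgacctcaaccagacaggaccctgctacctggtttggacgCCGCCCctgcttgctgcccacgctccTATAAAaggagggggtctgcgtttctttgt
Iyd: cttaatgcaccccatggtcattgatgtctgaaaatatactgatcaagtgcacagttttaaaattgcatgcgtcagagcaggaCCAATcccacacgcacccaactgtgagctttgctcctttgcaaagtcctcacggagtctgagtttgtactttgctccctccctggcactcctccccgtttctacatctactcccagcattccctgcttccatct
These are RefSeq promoter windows of GRCm38.p6, printed 5′ to 3′ on the strand of the gene and cut before the first annotated base. They lie at chr12:31559985-31560234 (minus), chr2:122315422-122315671 (plus), chr2:122313731-122313980 (minus), chr2:122298650-122298899 (plus) and chr10:3540024-3540239 (plus). Capitals mark matches, on either strand, to the TATA box letters TATAAA, the GC box letters GGGCGG and the CCAAT box letters CCAAT, and neighbouring GC boxes of Duoxa1 overlap. The cyclic AMP element TGACGTCA was searched too and had no match in any of the 7 windows. Slc26a4 and Duoxa2 have the TATA letters 31 and 30 bases before the start, and Iyd has them 29 bases before its RefSeq start, in a stretch that is not printed because it lies inside a GENCODE transcript. Duoxa1 has 3 GC box matches and no TATA letters, Duoxa2 has 2 GC box matches read on the other strand, and Duox1 has none of the 4 motifs. Of 32851 windows of 250 bases before gene starts, 12.4% hold the TATA letters, 32.7% the GC box, 33.8% the CCAAT box and 1.55% the cyclic AMP element. A match here describes letters and was not tested as a binding site.

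Total estimated counts were 20170500 to 23319948 in affected mice and 11434901 to 22401136 in unaffected mice, with the TCK mouse (mouse 14) the lowest. Tg took a mean of 16.9% of the counts in the affected group and 24.1% in the unaffected group, while the 7 genes together took 0.0169% to 0.0417% of all counts. The thyrocyte genes Pax8, Nkx2-1, Foxe1, Hhex and Tshr were detected in every mouse, with a summed level of 379 to 879 CPM (counts scaled to the library total) in affected mice and 748 to 1036 CPM in unaffected mice. Markers of other tissues varied between libraries. Affected mouse 3 had 1613 CPM of 8 airway markers and 378.5 CPM of 4 cartilage markers, where the other mice had at most 123 and 8.52 CPM. Unaffected mouse 23 had 3420 CPM of 6 salivary gland markers, where the others had at most 32.7 CPM. The summed level of 6 skeletal muscle markers ran from 1.38 to 26790 CPM, highest in affected mouse 6 and at least 1177 CPM also in affected mouse 5 and in unaffected mice 21, 22, 23 and 25. Adipose markers were highest in affected mouse 1 (2822 CPM, others at most 1204 CPM), and T cell markers in unaffected mice 14 and 21 (212.5 and 212.2 CPM, others at most 31.4 CPM). Of 46 markers of 12 other cell types that could be tested, 5 were higher and 1 lower in affected mice. That share is near the 13.7% called in either direction over all genes tested. The lower one was 1 of 4 endothelial markers, and 1 of 5 tested airway markers was higher. The calls include 2 of 6 macrophage markers, Cd68 (log2 fold change 0.98, adjusted p = 0.0101, edgeR) and Csf1r (0.68, adjusted p = 0.0481, edgeR), and DESeq2 called 5 of the 6. They also include 2 of 5 fibroblast markers, Dcn (0.58, adjusted p = 0.0139, edgeR) and Pdgfra (0.38, adjusted p = 0.0443, edgeR), and their part in the results below was not tested. In whole thyroid, fewer cells of a type and less RNA per cell cannot be told apart.

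Of the 7 genes, 1 was called between affected and unaffected mice, Slc26a4, which was higher (edgeR's quasi-likelihood test, Benjamini-Hochberg adjusted over all genes, threshold 0.05). It passed the filter on low counts only through the affected group, where it is high, so that its call is read beside the fit without a filter (log2 fold change 3.70, adjusted p = 0.00442, edgeR). Over all genes tested, 13.7% were called in either direction and 7.63% were called higher. With library totals without Tg in place of TMM scaling, the median log2 fold change of all genes moved from 0.01 to -0.13. The split of calls moved with the scaling, from 1500 higher and 1199 lower to 608 and 1711 without Tg and to 1149 and 1510 with upper-quartile factors. The direction of each of the 7 genes was the same under these scalings.

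**Figure D1:**
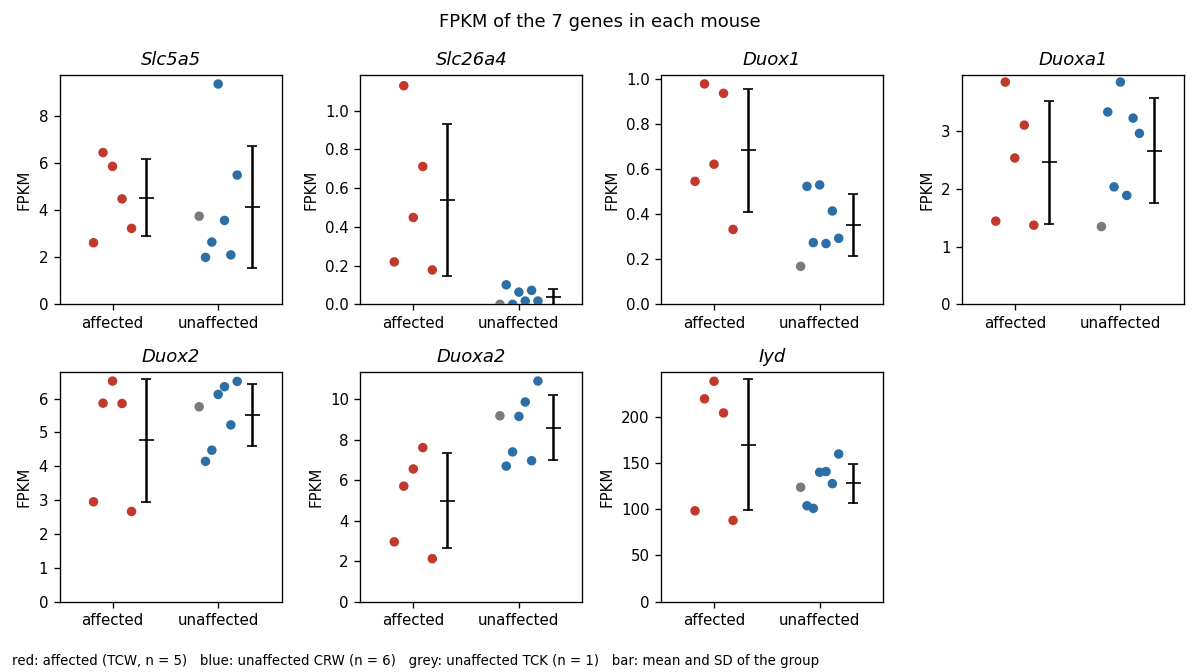
FPKM (fragments per kilobase of transcript, scaled to the library total) of each gene in each of the 12 mice, with the group mean and SD beside the points and a separate linear axis for each gene. The 5 affected mice lie above all 7 unaffected mice for Slc26a4, and the groups overlap for the other genes.

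The level per length differed widely between the genes. Iyd was the highest in every mouse, at 169 ± 70.9 FPKM (SD, n = 5) in affected and 128 ± 21.0 FPKM (SD, n = 7) in unaffected mice. In unaffected mice it was followed by Duoxa2 (8.59 FPKM), Duox2 (5.51), Slc5a5 (4.12), Duoxa1 (2.66), Duox1 (0.354) and Slc26a4 (0.0384). Of the neighbours in that order, Duox2 and Slc5a5, and Slc5a5 and Duoxa1, had overlapping ranges. In affected mice the order of the means was the same, but Duoxa2 (4.99 FPKM), Duox2 (4.77) and Slc5a5 (4.51) had overlapping ranges, as did Slc5a5 and Duoxa1 (2.46), and Duoxa2 was above Duox2 in 3 of 5 mice against 7 of 7 unaffected mice. The ranges of Duox1 (0.684 FPKM) and Slc26a4 (0.537 FPKM) overlapped as well in affected mice, where Duox1 was the higher in 4 of 5. Iyd held 80.6% to 82.9% of the estimated counts of the 7 genes in affected mice and 71.3% to 78.3% in unaffected mice.

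Among the iodide transporters, Slc26a4 rose and Slc5a5 did not pass the test. Slc26a4 had 14, 77, 28, 51 and 11 estimated counts in affected mice 1, 3, 4, 5 and 6. In unaffected mice it had 0 in the TCK mouse and 6, 0, 4, 1, 4 and 1 in CRW mice 21 to 26. Every affected mouse was thus above every unaffected mouse, which held for 7.14% of all genes tested when both directions were counted. The level was 0.537 ± 0.393 FPKM (SD, n = 5) against 0.0384 ± 0.0397 FPKM (SD, n = 7), so that pendrin RNA remained scarce in affected thyroids. The log2 fold change was 3.69 (SE 0.65, adjusted p = 0.00301, edgeR), a fitted ratio of 12.9. Counts this low bound the precision. In affected mouse 6 the 11 counts were 0.545 CPM without TMM scaling, with an exact 95% Poisson interval of 0.272 to 0.976, and in unaffected mouse 21 the 6 counts were 0.309 CPM with an interval of 0.113 to 0.673, both for counting error only. A count of 0 in mice 14 and 22 allows up to 0.262 and 0.134 CPM, taking 3 counts as the limit.

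The rise of Slc26a4 did not rest on 1 library. Affected mouse 3 had the highest Slc26a4 and the airway and cartilage markers described above, and without it the log2 fold change was 3.26 (adjusted p = 0.00884, edgeR). Without mice 3 and 23 together it was 3.42 (adjusted p = 0.0141, edgeR), and with only the CRW mice as controls it was 3.55 (adjusted p = 0.00633, edgeR). In each of the 22 alternative fits in which it could be tested, Slc26a4 was called and higher. Without a filter the log2 difference was 3.70 on counts (adjusted p = 0.00442, edgeR) and 0.53 on log2(FPKM + 1) (adjusted p = 0.0369, limma). The other fits used the filter that it passed only through the affected group, and all fits share these mice. Filters on at least 10 counts in every mouse or a mean FPKM of at least 0.5 removed it.

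Slc5a5 was at 2.61, 6.43, 5.85, 4.47 and 3.22 FPKM in affected mice 1, 3, 4, 5 and 6. In unaffected mice the lowest was 1.99, the median 3.56 and the highest 9.34 FPKM. The affected values all lay within the unaffected range. The log2 fold change was 0.14 (SE 0.40, adjusted p = 0.851, edgeR). The highest unaffected value came from mouse 23, the library with salivary gland RNA, a tissue that also expresses the symporter, and the part of that RNA in the result was not tested. Without that mouse the log2 fold change was 0.49, and no alternative fit called the gene.

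In the peroxide-generating system the log2 fold change was positive for Duox1 and negative for Duox2, Duoxa1 and Duoxa2, and none passed the main test. Duox1 was at 0.547, 0.980, 0.623, 0.938 and 0.333 FPKM in affected mice 1, 3, 4, 5 and 6. In unaffected mice the lowest was 0.169, the median 0.294 and the highest 0.531 FPKM. In affected mice 1, 3, 4 and 5 the level per length was above that of every unaffected mouse, while in CPM this held for 3 affected mice. The log2 fold change of 0.93 (SE 0.31) missed the threshold (adjusted p = 0.0641, edgeR) and passed it with DESeq2 (0.94, adjusted p = 0.0243) and with Xist as a covariate (0.85, adjusted p = 0.0280, edgeR). Affected mouse 3, with the airway and cartilage markers, had the highest value per length, and without it the log2 fold change was 0.79 (adjusted p = 0.151, edgeR). The drop was not particular to that library. Without affected mouse 5, which had 45.6 CPM of airway markers, it was 0.79 as well (adjusted p = 0.161, edgeR). Duoxa1, the partner of Duox1, had 1.44, 3.85, 2.53, 3.10 and 1.37 FPKM in the same affected mice. In unaffected mice the lowest was 1.35, the median 2.96 and the highest 3.85 FPKM. The groups covered nearly the same range, with a log2 fold change of -0.36 (SE 0.28, adjusted p = 0.445, edgeR).

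Duox2, the more abundant oxidase, was at 2.95, 5.86, 6.52, 5.85 and 2.66 FPKM in affected mice 1, 3, 4, 5 and 6. In unaffected mice the lowest was 4.15, the median 5.76 and the highest 6.51 FPKM. Mice 1 and 6 were below all unaffected mice, mice 3 and 5 were inside the unaffected range, and mouse 4 was just above it. The log2 fold change of Duox2 was -0.23 (SE 0.23, adjusted p = 0.544, edgeR). Its partner Duoxa2 was at 2.95, 5.70, 6.55, 7.61 and 2.12 FPKM. In unaffected mice the lowest was 6.69, the median 9.15 and the highest 10.9 FPKM. Only mouse 5 of the affected group reached the unaffected range per length, while in CPM 3 affected mice lay below all unaffected mice. The log2 fold change of -0.77 (SE 0.28) missed the threshold (adjusted p = 0.0909, edgeR) and passed it with DESeq2 (-0.77, adjusted p = 0.0356).

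Iyd, the recycling enzyme, was at 98.2, 219, 238, 204 and 87.8 FPKM in affected mice 1, 3, 4, 5 and 6. In unaffected mice the lowest was 101, the median 128 and the highest 159.5 FPKM. The affected mice fell on both sides of the unaffected range, 3 above it and 2 below it, and none within it. The log2 fold change of 0.38 (SE 0.24) did not pass (adjusted p = 0.322, edgeR). Affected mice 1 and 6, the low ones for Iyd, Duox2 and Duoxa2, also had the lowest summed thyrocyte genes of all mice, at 379 and 398 CPM. They were also the mice with the highest adipose and the highest skeletal muscle markers, whose part in these low values was not tested.

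Each gene was therefore also read against the thyrocyte genes of the same mouse, as its log2 CPM minus the mean log2 CPM of Pax8, Nkx2-1, Foxe1, Hhex and Tshr. On this scale Iyd separated the groups, and the share of all genes tested that do so on it was not counted. Affected mice had 1.38 ± 0.23 (SD, n = 5, from 1.13 to 1.73) and unaffected mice 0.64 ± 0.08 (SD, n = 7, from 0.52 to 0.73). The difference of 0.73, a ratio of 1.66, was tested over every split of 5 against 7 mice (exact permutation test, two-sided, p = 0.00253, the smallest it can give, and 0.00884 after adjustment over the 7 genes). Slc26a4 differed by 3.36 and did not overlap either (exact permutation test, adjusted p = 0.00884). Its value on any reference is limited by the low counts and the filter described above. Duox1 was higher by 1.36 (exact permutation test, adjusted p = 0.0118), and 4 of 5 affected mice were above all unaffected mice. Duoxa2 was lower by 0.45 (exact permutation test, adjusted p = 0.0177), and 4 of 5 affected mice were below all unaffected mice. Differences of 0.71 for Slc5a5, 0.14 for Duox2 and 0.06 for Duoxa1 did not pass (exact permutation tests, adjusted p = 0.0884, 0.153 and 0.806).

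The choice of reference moved some of these. Pax8 was itself lower in affected mice (log2 fold change -0.81, SE 0.19, adjusted p = 0.0158, edgeR), and the median of the 5 reference genes was -0.41. The log2 fold change was -0.41 for Nkx2-1, -0.61 for Foxe1, -0.41 for Hhex and 0.31 for Tshr, and none of these passed. A lower reference raises every gene read against it in affected mice, so that part of each difference lies in the reference. With Tg alone as the reference the difference was 0.85 for Iyd and 3.48 for Slc26a4 (exact permutation tests, adjusted p = 0.00589 for each), and that of Duoxa2, -0.33, no longer passed (exact permutation test, adjusted p = 0.0825). With Pax8 alone as the reference, Duoxa2 differed by -0.02. Fitted in edgeR with the mean of the 5 genes as a covariate, Iyd was higher by 0.87 (adjusted p = 7.76e-05).

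**Figure D2:**
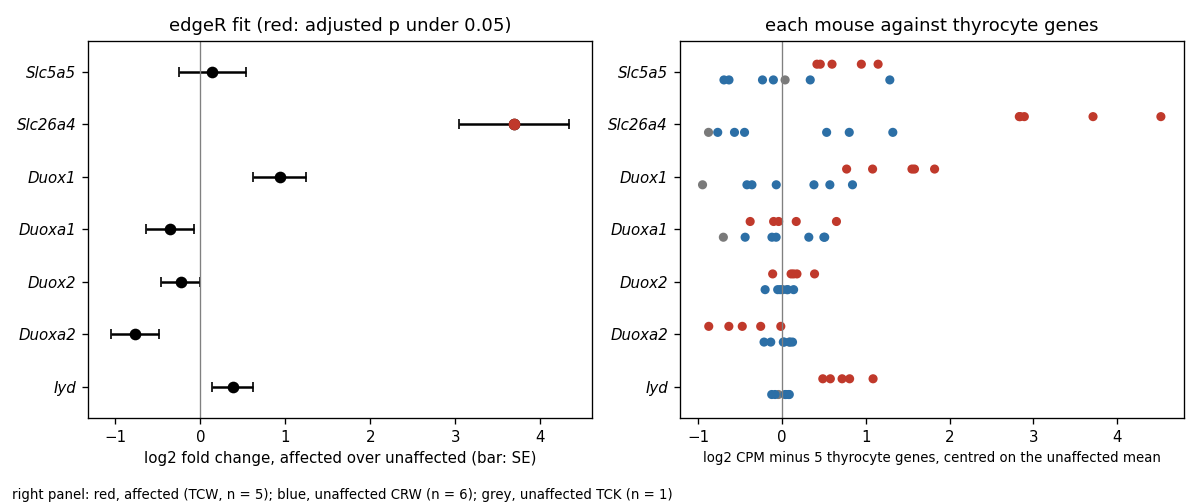
Left, log2 fold change of each gene, affected over unaffected, with its SE from the edgeR fit. Right, log2 CPM of each gene minus the mean of 5 thyrocyte genes in every mouse, centred on the unaffected mean. Iyd and Slc26a4 separate the 5 affected from the 7 unaffected mice on the right, and only Slc26a4 passed the test on the left.

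Ratios between paired genes within a mouse addressed whether the oxidases and their partners kept their proportions, as differences of log2 CPM with a prior count of 2. Duoxa1 over Duox1 separated the groups. It was 0.10 ± 0.23 (SD, n = 5, from -0.25 to 0.28) in affected and 1.40 ± 0.23 (SD, n = 7, from 1.06 to 1.74) in unaffected mice. By counts, the maturation factor was thus at 0.406 of its unaffected proportion to the oxidase (exact permutation test, p = 0.00253, adjusted over 5 ratios 0.00842). Counts are not corrected for transcript length, which differed between the groups for Duoxa1, as described below. On log2(FPKM + 0.1) the ratio differed by -0.91, a proportion of 0.531 (exact permutation test, adjusted p = 0.00631). Duoxa2 over Duox2 fell by 0.59 (exact permutation test, adjusted p = 0.00842), from -1.17 ± 0.11 (SD, n = 7) in unaffected to -1.76 ± 0.29 (SD, n = 5) in affected mice. Both maturation factors were therefore lower against their own oxidase in affected mice. Duox2 over Duox1 fell by 1.22 (exact permutation test, adjusted p = 0.00947), from 4.04 ± 0.69 (SD, n = 7) to 2.82 ± 0.41 (SD, n = 5). Duoxa2 over Duoxa1 differed by -0.51 and did not pass (exact permutation test, adjusted p = 0.119). Slc26a4 over Slc5a5 rose by 2.65 (exact permutation test, adjusted p = 0.00842), from -5.79 ± 1.21 (SD, n = 7) to -3.14 ± 0.65 (SD, n = 5), with affected mouse 6 (-3.90) just below unaffected mouse 21 (-3.83). In unaffected mice 14, 22, 24 and 26, with 0, 0, 1 and 1 counts of Slc26a4, this ratio depends largely on the prior count. As Slc26a4 also passed the filter only through the affected group, this ratio is a description and no separate support for its rise. The 4 ratios that passed did so in each of their 16 alternatives, and ratios that share a gene are not independent.

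**Figure D3:**
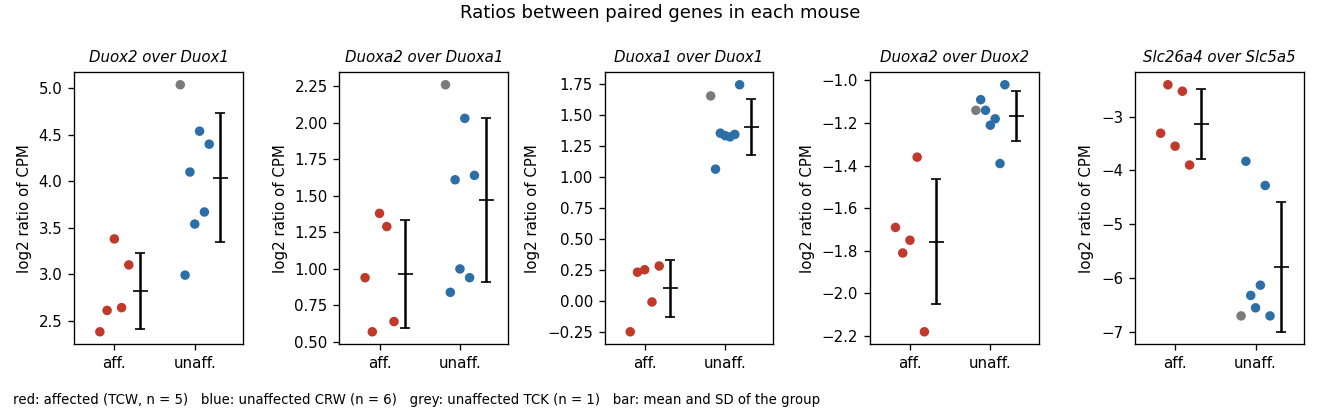
Log2 ratio of CPM between paired genes in each of the 12 mice, with the group mean and SD beside the points and an axis of its own for each ratio. Duoxa1 over Duox1 does not overlap between the groups, and 4 of 5 affected mice lie below all unaffected mice for Duoxa2 over Duox2.

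How the counts were assigned bears on these ratios. The estimated counts of Duox1 and Duox2 were fractional in all 12 mice but summed to whole numbers (within 0.001) in all 12, as did those of Duoxa1 and Duoxa2, so that reads were divided between the members of each pair. Duox1 received 8.51% to 15.7% of the sum of its pair in affected and 2.68% to 10.8% in unaffected mice. Duoxa1 received 27.4% to 40.2% of its pair in affected and 16.9% to 35.8% in unaffected mice. With each pair summed before the fit, Duox1 plus Duox2 had a log2 fold change of -0.13 (SE 0.22, adjusted p = 0.738, edgeR) and Duoxa1 plus Duoxa2 of -0.65 (SE 0.25, adjusted p = 0.111, edgeR). The separate values of the 4 genes are uncertain to the extent that shared reads were split wrongly, and whether the counting used the strand, which matters for the overlapping ends of Duoxa1 and Duoxa2, is not given in the sources used here.

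The length by which counts had been turned into FPKM differed between the groups for Duoxa1, which has 7 annotated transcripts. This length, the count divided by FPKM and by the total, was 1672, 1584, 1551, 1570 and 1552 bp in affected mice 1, 3, 4, 5 and 6. In unaffected mice it ranged from 1780 bp in mouse 21 to 2204 bp in the TCK mouse. The groups did not overlap, at 1586 ± 50.4 bp (SD, n = 5) and 1912 ± 149 bp (SD, n = 7), a difference of -17.1% (exact permutation test, p = 0.00253, adjusted over the 7 genes 0.0177). In affected mice the counts of Duoxa1 were thus assigned to a mix of shorter transcripts. The share of all genes whose implied length separates the groups was not counted. Duoxa1 shares 682 bp of exon with Duoxa2 and reads were divided between them, and the part of this in the length was not tested. Per length the mean of Duoxa1 was 2.46 FPKM in affected and 2.66 FPKM in unaffected mice, and by counts alone 3.89 and 4.99 CPM. For Duox2, with 3 annotated transcripts, the length was 5462 ± 231 bp (SD, n = 5) against 5588 ± 121 bp (SD, n = 7), and for Iyd, with 2, it was 1519 ± 38.2 bp against 1548 ± 15.8 bp (exact permutation tests, adjusted p = 0.526 and 0.354). The lengths of the other 4 genes were the same in both groups to within 0.1%.

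**Figure D4:**
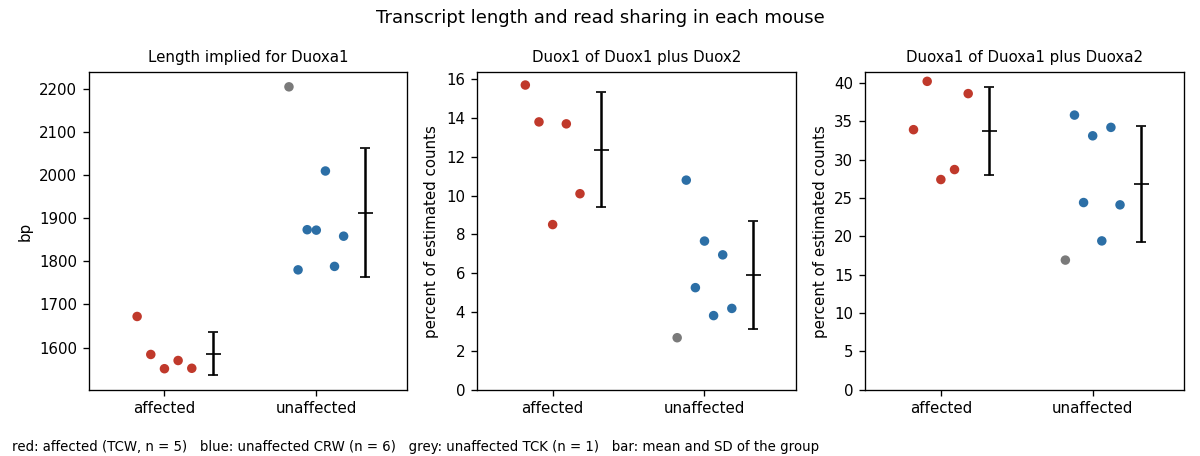
Left, transcript length in bp implied for Duoxa1 in each mouse, on an axis that does not start at 0. Middle and right, the percent of the estimated counts of Duox1 plus Duox2 given to Duox1, and of Duoxa1 plus Duoxa2 given to Duoxa1. Only the implied length separates the 5 affected from the 7 unaffected mice.

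Within groups, the genes were most closely related in 2 sets, which were drawn from the correlations over these same 12 mice. The sets appeared separate in the unaffected mice only. After the mean of each group was subtracted from log2 CPM, Duox2, Duoxa2 and Iyd rose and fell together over the 12 mice. For Duox2 and Iyd Pearson's r was 0.98 (permutation p = 5e-05) and Spearman's rho 0.98 (permutation p = 0.00016). For Duox2 and Duoxa2 r was 0.93 (permutation p = 0.0011) and rho 0.96 (permutation p = 0.00034), and for Duoxa2 and Iyd r and rho were both 0.94 (permutation p = 0.0021 and 0.0012). Duox1, Duoxa1 and Slc26a4 made the other set. For Duox1 and Duoxa1 r was 0.92 (permutation p = 0.00018) and rho 0.93 (permutation p = 0.00011). For Slc26a4 r was 0.91 with Duox1 and 0.91 with Duoxa1 (permutation p = 0.00032 and 0.00061), with rho of 0.88 and 0.87 (permutation p = 0.00051 and 0.0017). These 6 pairs had adjusted p of 0.001 to 0.0072 for r and 0.0017 to 0.0051 for rho over the 21 pairs. Without the 2 mice farthest from the median of the first gene, r was 0.96, 0.90 and 0.88 in the first set and 0.88, 0.90 and 0.92 in the second. Across the sets, Duox1 and Duox2 had r of 0.33 (permutation p = 0.32) and rho of 0.38 (permutation p = 0.22). Duoxa1 and Duoxa2 had r of 0.57 (permutation p = 0.13) and rho of 0.45 (permutation p = 0.20). Reads were divided within each of these pairs, and the part of this in their values was not tested. By r, Slc5a5 was closest to Duox2, with r of 0.70 (permutation p = 0.0026, adjusted 0.0077) and rho of 0.74 (permutation p = 0.0022, adjusted 0.0059), while its rho was 0.76 with Duoxa2 and with Iyd. In the 7 unaffected mice alone, the 6 pairs within a set had r of 0.82 to 0.93 (exact permutation p from 0.00198 to 0.0365, adjusted over 21 pairs up to 0.127) and rho of 0.72 to 0.93 (exact permutation p from 0.00675 to 0.0778, adjusted up to 0.181). The 9 pairs across the sets had r of -0.47 to 0.23 (exact permutation p from 0.271 to 0.938) and rho of -0.45 to 0.07 (exact permutation p from 0.311 to 0.963). In the 5 affected mice, too few for a test, all 7 genes were lowest in mice 1 and 6, and r was 0.93 to 0.99 within the sets and 0.76 to 0.93 across them. The difference between the groups in this was not tested. As the sets were drawn from all 12 mice, the values within a set in the 7 unaffected mice are a description. They are no separate test of the sets. Each of the 5 thyrocyte genes was also lowest in mice 1 and 6 among the affected mice. With their mean as an edgeR covariate, the SE of the log2 fold change fell from 0.227 to 0.096 for Duox2. It fell from 0.282 to 0.133 for Duoxa2 and from 0.239 to 0.093 for Iyd, but did not fall for the second set. How far the first set follows thyrocyte genes in general was not tested. The genes of a set included each head-to-head pair of the cluster together with a gene from another chromosome.

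**Figure D5:**
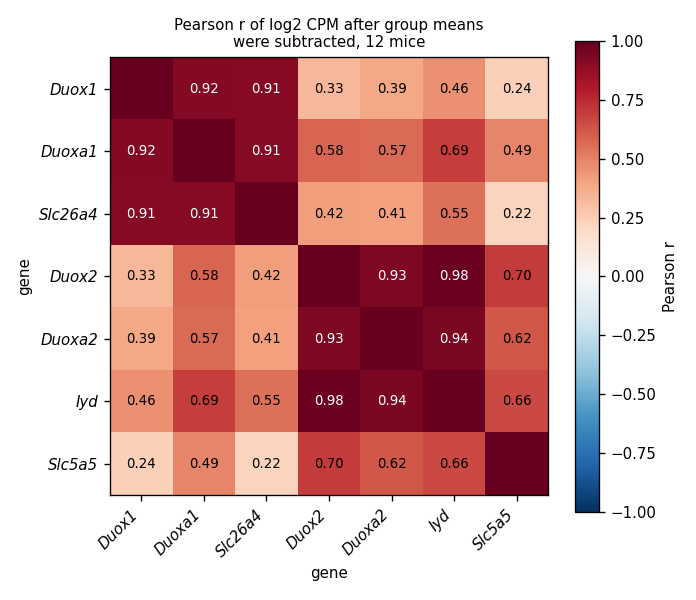
Pearson's r between the log2 CPM of each pair of genes over the 12 mice, after each group's mean was subtracted, with colour from -1 to 1. Duox1, Duoxa1 and Slc26a4 form one block of r from 0.91 to 0.92, and Duox2, Duoxa2 and Iyd another of 0.93 to 0.98. In the affected mice alone the blocks were not separate, and over the 12 mice with the Xist slope removed they overlapped.

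Slopes on Xist, the RNA of the inactive X chromosome, were also steepest for Duox1, Duoxa1 and Slc26a4. Xist ranged from 11.2 to 2088 CPM over the 12 mice. In a fit with Xist added, the slope per log2 unit of Xist was 0.121 (SE 0.033) for Duox1, 0.221 (SE 0.081) for Slc26a4 and 0.082 (SE 0.036) for Duoxa1. For the other 4 genes it lay between -0.019 and 0.009. None of the 7 slopes passed the adjusted threshold (adjusted p from 0.4999 to 0.987, edgeR), and 0.0407% of all genes did. With the Xist slope removed, r was 0.92 for Duox1 and Duoxa1, 0.82 for Slc26a4 and Duox1 and 0.88 for Slc26a4 and Duoxa1. The 9 pairs across the sets then had r from 0.63 (Slc26a4 and Duoxa2) to 0.84 (Duoxa1 and Iyd), with 0.71 for Duox1 and Duox2. The values within and across the sets thus overlapped once the Xist slope was removed. Sex was not in the labels, and no mice were grouped by Xist.

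By the same measure, the genes most like each of the 7 were sought among about 15174 genes with an average log2 CPM of at least 1. Iyd was closest to Dgkh (r = 0.99), a diacylglycerol kinase gene, and Os9 (r = 0.99), whose product helps to clear misfolded proteins from the endoplasmic reticulum. Os9 was also higher in affected mice (log2 fold change 0.68, SE 0.15, adjusted p = 0.00953, edgeR). Duox2 was closest to Atp11a and Rnh1, and Duoxa2 to Pdxk and Gm43230, with r of 0.98 each. Duoxa1 was closest to Tgm1 (r = 0.97), a transglutaminase gene that was higher in affected mice (2.52, SE 0.46, adjusted p = 0.00477, edgeR), and to Cacng4 (r = 0.94). Duox1 was closest to Apex1 (r = 0.96), a DNA repair gene, and Efna4 (r = 0.95). Slc26a4 was closest to Rae1 (r = 0.94) and Fyb2 (r = 0.93), and Slc5a5 to Qsox2 (r = 0.95) and Ick (r = 0.94). These are the highest of many values over the same 12 libraries and are given as a description.

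The unaffected TCK mouse lay within the range of the 6 CRW mice for Slc5a5, Slc26a4, Duox2, Duoxa2 and Iyd. It was below them for Duox1, at 0.848 CPM against 1.46 to 2.85, and for Duoxa1, at 2.83 CPM against 3.89 to 7.33. Its library was also the smallest, with 10.2 estimated counts of Duox1, and with 1 such mouse no test of its own was possible.

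Other genes of the thyroid moved in both directions. Of 24 tested genes of hormone synthesis, release and follicular identity, 3 were higher, 3 lower and 18 did not pass, with a median log2 fold change of 0.03 against 0.01 over all genes tested. The share called in either direction over all genes tested was 13.7%. Dio2, a deiodinase that activates thyroid hormone, was higher by 3.25 (SE 0.85, adjusted p = 0.0282, edgeR), though its affected values ran from 1.81 to 109 CPM and overlapped the unaffected range of 1.48 to 9.40 CPM. Ctsd, a lysosomal protease that cleaves thyroglobulin, was higher by 0.71 (SE 0.09, adjusted p = 0.000285, edgeR). Tg itself had a log2 fold change of -0.49 (SE 0.21, adjusted p = 0.140, edgeR).

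Calls among relatives of the 7 genes are given beside a share of 13.7% called in either direction over all genes tested. Among 9 tested genes of the NADPH oxidase family and its subunits, Rac1, a small GTPase that activates some of the oxidases, was higher by 0.29 (SE 0.06, adjusted p = 0.00884, edgeR) and 8 did not pass. Of the 9, 6 had an unadjusted p under the threshold, and DESeq2 called 3. Of 8 other SLC26 anion transporters tested, edgeR called 0, with 1 at an unadjusted p under the threshold, and DESeq2 called 0 as well. With a share of 13.7% over all genes and only 8 genes tested, the lack of a call is not read as a result about this family. Of 3 other SLC5 transporters tested, Slc5a9, a sugar transporter gene, was higher by 1.84 (SE 0.25, adjusted p = 0.000692, edgeR) and did not overlap between the groups.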

How the data were processed

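The authors prepared ribosome-depleted total RNA libraries from thyroids of 12 mice, sequenced them on an Illumina NextSeq instrument, and aligned and quantified the reads in OmicSoft Array Studio (OSA4) against Mouse.B39 with Ensembl.R96. The authors deposited 2 tables, one of estimated counts with no normalization and one of FPKM values. Strand setting and filters are not given in the sources used here. All columns of both tables were matched to a mouse by library name.

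Counts were rounded, filtered with filterByExpr (minimum count 10, 19661 genes left), scaled by TMM and tested with edgeR 4.0.16 (R 4.3.3; robust quasi-likelihood), 5 affected against 7 unaffected mice, without covariates, with Benjamini-Hochberg adjustment and a threshold of 0.05. The SE of a log2 fold change was derived from it and its F statistic. CPM are on the TMM scale, log2 CPM with a prior count of 2. Ratios, differences to thyrocyte genes and implied lengths were compared with exact two-sided permutation tests (scipy), doubling the smaller tail. Correlations were permuted within groups 100000 times. The labels do not say whether the mice are from separate litters or cages, so p-values measure the spread between these mice. Depth limits Slc26a4 most. Intervals cover counting error only.

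The 7 genes and all lists were chosen with earlier results of these data known. Genes named are the 7, Tg, at most 4 genes per list past the threshold with the largest change, and the 2 genes most correlated with each of the 7. A gene that meets this rule is withheld and is not reported here. Alternatives were DESeq2 1.42.0, other scalings, filters, limma 3.58.1 on log FPKM (pseudocount 1 or 0.1, genes kept at a mean of 0.5 or, for pseudocount 1, unfiltered), only CRW controls, covariates, other references, and leaving out each mouse. Summed pairs, the Xist slope, correlations in unaffected mice alone, and leaving out mice 3 and 23 together were added after the data were seen. The test was tried on simulated counts. Starts and exons are from GENCODE M21, whose coordinates match those of the 7 genes in the tables. RefSeq windows were found for all 7.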

Additional observations from a re-analysis of the deposited data

How the results depend on the processing

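Slc26a4 was called and higher in all 22 alternatives in which it was tested, with adjusted p from 3.53e-06 to 0.0369. Apart from the fits without a filter, these kept it only through the affected group, where it is high. It could not be tested with at least 10 counts in every mouse or with a mean FPKM of at least 0.5, as it was filtered out. With log2(FPKM + 1) and no filter its log2 difference was 0.53, on a scale that understates changes of low genes. The cause of the other changes below was not tested. Duox1, also filtered out at a mean FPKM of at least 0.5, passed with DESeq2 (0.94), at least 10 counts in every mouse (0.94), Xist (0.85) or thyrocyte genes (1.15) as a covariate, and without affected mouse 6 (1.10, adjusted p = 0.0314) or unaffected mouse 23 (1.05, adjusted p = 0.0438). Leaving out mice gave 0.79 to 1.10, and over all 23 alternatives adjusted p ran from 0.0243 to 0.181. Duoxa2 passed with DESeq2 (-0.77), and adjusted p over its 25 alternatives ran from 0.0356 to 0.273. Iyd passed with the thyrocyte covariate (0.87), and adjusted p ran from 7.76e-05 to 0.624. With that covariate Duox2 turned to 0.23 (adjusted p = 0.147). Slc5a5 and Duoxa1 were called in 0 of 25 alternatives.

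The count of 2699 genes called moved to 1339 with log2(FPKM + 1) and no filter. Leaving out mice gave 1763 to 3390, with 1774 without affected mouse 5 and 1763 without mice 3 and 23 together, and DESeq2 called 3595.

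The ratio of Duoxa2 over Duoxa1 passed on log2(FPKM + 0.1) (-0.76, adjusted p = 0.0429, exact permutation test). Against the thyrocyte genes, Duox2 passed with Tg alone (0.26), with Pax8 alone (0.57), and without affected mouse 1, where leaving out mice gave 0.08 to 0.21. Duoxa2 no longer passed with Tg alone (-0.33) or Pax8 alone (-0.017). Slc5a5 passed with Pax8 alone (1.14) and without unaffected mouse 23 (0.93, adjusted p = 0.0101, exact permutation test), or mice 3 and 23 together (0.82), with a range of 0.60 to 0.93 over left-out mice. Duoxa1 turned with only the CRW mice as controls, which is the same as leaving out unaffected mouse 14 (-0.056), without affected mouse 3 (-0.087), without unaffected mouse 24 (-0.013) and without mice 3 and 23 (-0.004), with a range of -0.087 to 0.17 and no call. The implied length of Duox2 passed without affected mouse 6 (-220.1 bp, with a range of -220.1 to -68.1 bp). Implied lengths of Slc26a4 and Slc5a5 differed by under 0.1% in all fits, with either sign (-1.57 to 1.97 bp and -0.0048 to 0.017 bp), and such differences were given no direction. Apart from these, the other comparisons kept their direction and their side of the threshold. No paired analysis was possible because the groups share no replicate number.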
